A study of Mus musculus with 2 samples.

Results

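The cells described here are NKT-like T cells of the mouse liver, taken as CD3-bearing cells with transcripts of Il4 or Zbtb16. A cell was counted when its raw UMIs (unique molecular identifiers, 1 per captured transcript) met 7 conditions: at least 2 over Cd3d, Cd3e and Cd3g, at least 1 over Il4 and Zbtb16, at least 1 over Cxcr6 and Cd40lg, none of Cd8a or Cd8b1, none of Foxp3, none of Cd163l1 or Il23r, and fewer than 3 over Mki67, Top2a and Birc5. Among 18867 kept cells, 406 met the rule: 296 of 9990 from PKM2FL/FL mice (called FL/FL from here) and 110 of 8877 from PKM2ΔMAC mice (called ΔMAC). The cells were chosen by their measured UMIs of these genes, so the levels of its own genes describe how the cells were chosen and support nothing further.

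Natural killer T cells are T lymphocytes whose receptor reads lipids held by CD1d rather than peptides held by classical MHC molecules, and they are abundant in the mouse liver. The transcription factor encoded by Zbtb16, PLZF, gives them an innate-like readiness to release cytokines soon after stimulation. Subtypes are named for their leading factor and cytokine: NKT1 cells (Tbx21, Ifng, NK receptors), NKT2 cells (Gata3, Il4) and NKT17 cells (Il17a), and PLZF is also present in some gamma-delta T cells.

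Liver non-parenchymal cells, obtained by perfusion and a density gradient, came from mice on the MCD diet (lacking methionine and choline, used to produce a fatty, scarring liver) for 8 weeks. Both genotypes received the diet, so there is no library of healthy liver. One library is PKM2FL/FL, the floxed control. The other is PKM2ΔMAC, named for the loss of the pyruvate kinase isoform PKM2, a product of Pkm, from macrophages. The sources used here do not give the Cre driver, how many mice were pooled or whether the kit was v2 or v3. With 1 library per genotype there is no replicate and no test between genotypes, and each difference below describes these 2 libraries. Ranges in parentheses are 95% intervals (exact Clopper-Pearson for shares, exact Poisson or conditional for UMI counts) and cover counting error only.

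The libraries differed in ways that touch all cells. Median depth of the barcodes was 4504.5 UMIs in FL/FL and 3791 in ΔMAC, and the libraries shared 17 barcodes, none of them among the NKT-like cells. Pkm stood at 536 CPM (counts scaled to a gate total of 1e6 UMIs) in FL/FL and 276 in ΔMAC in a mononuclear phagocyte gate, and at 159 and 114 in a B cell gate. Reads at the 3′ end do not show which Pkm exons remain, so these values do not check the deletion. Lyz2, the lysozyme gene of myeloid cells, was at 11562 CPM in FL/FL phagocytes and 25.4 in ΔMAC phagocytes, with B gate levels of 355 and 1.15. The NKT-like cells held 2050801 UMIs in FL/FL (median 6219.5 per cell, from 1755 to 27708) and 661037 in ΔMAC (median 5718, from 957 to 13735). Mitochondrial UMIs had medians of 2.75% and 3.27% in these cells. Pkm itself was at 255 CPM in FL/FL and 218 in ΔMAC NKT-like cells, a ratio of 0.854 (0.705 to 1.03) whose interval includes equality.

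NKT-like cells made up 2.96% (2.64 to 3.31) of kept cells in FL/FL and 1.24% (1.02 to 1.49) in ΔMAC, a ratio of 0.418 (0.333 to 0.522). Against CD3-bearing cells, of which there were 2827 and 2217, the shares were 10.5% and 4.96%. The difference was larger for cells with Il4, the cytokine of type 2 responses. Cells with at least 1 Il4 UMI numbered 129 in FL/FL (1.29% of kept cells) and 17 in ΔMAC (0.192%), a ratio of 0.148 (0.0838 to 0.247). Cells that entered through Zbtb16 alone numbered 167 (1.67%) and 93 (1.05%), a ratio of 0.627 (0.481 to 0.812). By this rule and at full depth, the ΔMAC library therefore held fewer cells of both kinds, and Il4-bearing cells were the scarcer of them. The first ratio was nearer to equality after thinning. With every cell thinned to 2000 UMIs and the rule applied anew, 99 FL/FL and 51 ΔMAC cells met it, a ratio of 0.605 (0.423 to 0.857). Of these cells, 32 and 4 held Il4, a ratio of 0.147 (0.0377 to 0.414), close to that at full depth. Thinning also removes UMIs of the excluding genes, so cells left out at full depth can enter, and the part of depth in this change was not tested.

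**Figure D1:**
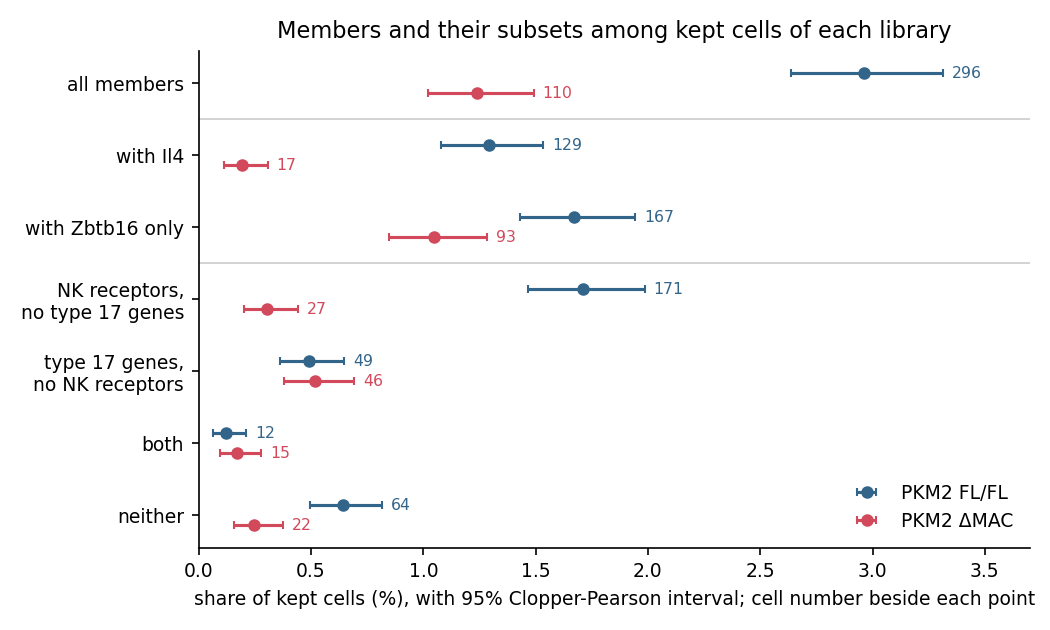
Share of kept cells in percent (horizontal axis, points with 95% Clopper-Pearson intervals and cell numbers) for all NKT-like cells and for subsets, in the FL/FL and ΔMAC libraries. Cells with Il4 (129 against 17) and cells with NK receptors and no type 17 genes (171 against 27) lie far apart between the libraries, while cells with type 17 genes and no NK receptors number 49 and 46.

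The exclusion of cells with Cd163l1 or Il23r, markers of interleukin 17 type gamma-delta T cells, bore unequally on the libraries. It removed 78 of the cells left at that step in FL/FL (20.5%) and 116 in ΔMAC (50.7%). Without it, the rule would take 372 and 223 cells, a ratio of 0.675 (0.569 to 0.799). Cells with Il4 would still number 129 and 17, so the cells added all held Zbtb16 and no Il4. The ratio for cells that entered through Zbtb16 alone therefore depends on this condition. Of the cells that failed on these genes alone, 37 of 76 in FL/FL and 49 of 113 in ΔMAC did so with a single UMI. On the Il4 and Zbtb16 threshold, 165 FL/FL and 59 ΔMAC cells passed with a single UMI, and 522 and 227 cells met every other condition with none. On the CD3 threshold, 11 and 2 cells passed with the minimum of 2 UMIs and 8 and 4 cells fell short with 1. On Cxcr6 and Cd40lg, 62 and 20 cells passed with 1 UMI and 53 and 15 cells had none.

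The 5 genes that mark these cells were present in both libraries. Il4 (chromosome 11, 53602982 to 53618669 on mm10, minus strand) stood at 124 CPM in FL/FL and 34.8 in ΔMAC, against 0.46 and 1.02 in the B gate. Zbtb16 (chromosome 9, 48654297 to 48836222, minus strand) stood at 145 and 253 CPM, against 2.99 and 3.20 in B cells. A cell without Il4 had to hold Zbtb16 to be counted, so the rule ties these levels to each other and they are a description. B cells held next to none of either transcript. Cxcr6, the receptor for CXCL16 on liver sinusoids, was at 420.3 and 570.3 CPM. Cd40lg, which signals to CD40 on antigen-presenting cells, was at 133 and 179 CPM. Izumo1r, which encodes folate receptor 4, was at 40.5 CPM in FL/FL and 15.1 in ΔMAC, from 83 and 10 UMIs. The gate held 77.0% of the 331 Il4 UMIs found in CD3-bearing FL/FL cells and 59.0% of the 39 in ΔMAC cells, but only 12.1% and 3.60% of their Izumo1r UMIs. After thinning, an Il4 UMI was found in 21.4% of 294 FL/FL and 6.54% of 107 ΔMAC cells (B gate 0.139% and 0.091%), and a Zbtb16 UMI in 32.3% and 43.9% (B gate 0.324% and 0.455%). Unthinned, the Il4 rates were 43.6% and 15.5% and the Zbtb16 rates 70.9% and 90.0%, at B gate median depths of 3246 and 2798 UMIs. Thinning left out 2 FL/FL and 3 ΔMAC cells of lower depth.

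The gate held cells of more than one transcript kind. A sum over 6 genes of interleukin 17 type T cells (Il17a, Il17f, Ccr6, Il1r1, Sdc1 and Blk) and a sum over 5 NK receptor genes (Klrb1c, Klrd1, Klrk1, Klre1 and Klrc1) were formed for each cell, both chosen after the data had been seen, and a cell with at least 2 UMIs of a sum was called positive. Type 17 genes were found in 61 of 296 FL/FL cells (20.6%, 16.1 to 25.7) and in 61 of 110 ΔMAC cells (55.5%, 45.7 to 64.9). NK receptors were found in 183 FL/FL cells (61.8%) and 42 ΔMAC cells (38.2%). NK receptor cells were thus the larger class in FL/FL, and cells with type 17 genes the larger class in ΔMAC. Only 12 FL/FL and 15 ΔMAC cells were positive for both sums, and 64 and 22 for neither. These classes are ranges of a sum: 22 FL/FL and 21 ΔMAC cells had 1 type 17 UMI, just under the threshold, and 11 and 15 cells had exactly 2. Thinned to 2000 UMIs, type 17 genes were found in 10.5% and 28% of cells, NK receptors in 39.1% and 20.6%, and both in 2 FL/FL cells and no ΔMAC cell, so neither class was then a majority of its library's cells. Called from 3 UMIs, type 17 genes were found in 50 FL/FL and 46 ΔMAC cells. Blk is also a B cell gene, at 179.8 and 134 CPM in the B gate, and the part of free RNA in these sums was not tested.

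**Figure D2:**
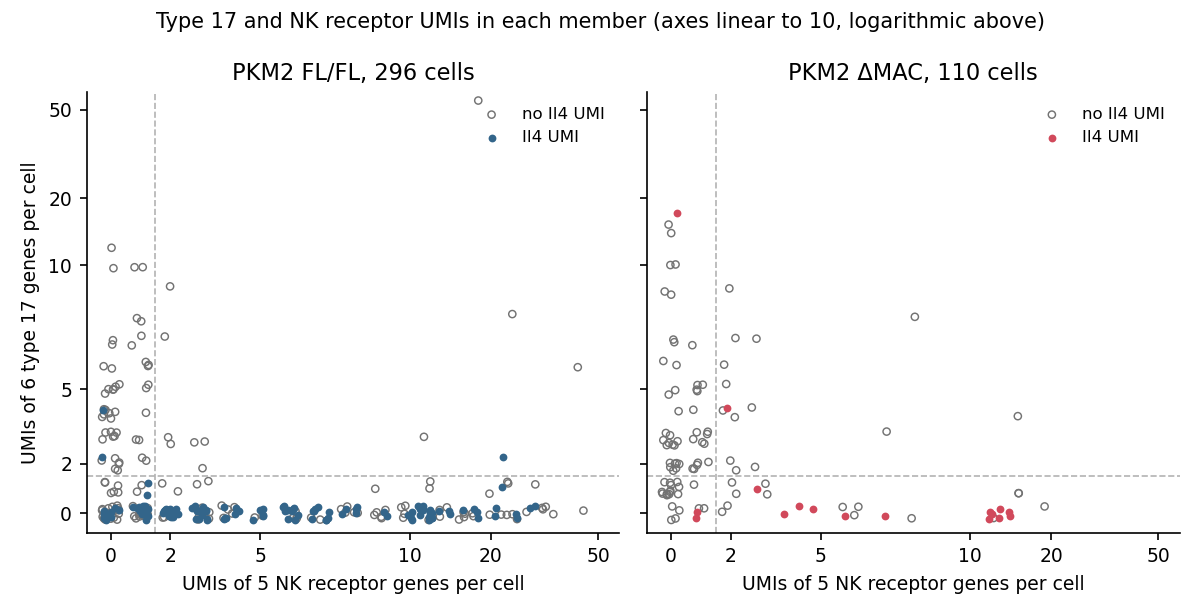
Each NKT-like cell by its UMIs of 5 NK receptor genes (horizontal) and of 6 type 17 genes (vertical), with jitter and axes that are linear to 10 and logarithmic above, in FL/FL (left, 296 cells) and ΔMAC (right, 110 cells); filled points have an Il4 UMI and dashed lines mark the threshold of 2 UMIs. Filled points lie almost wholly below the horizontal line in FL/FL, where 3 of 129 Il4-bearing cells have type 17 genes, and the ΔMAC cells crowd along the vertical axis.

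As shares of all kept cells, the subsets did not differ alike. Cells with type 17 genes were 0.611% of the FL/FL library and 0.687% of the ΔMAC library, a ratio of 1.13 (0.776 to 1.63) whose interval includes equality. Without the Cd163l1 and Il23r condition, 124 and 155 cells had type 17 genes and the ratio was 1.41 (1.10 to 1.80), above equality. Cells without type 17 genes were 2.35% and 0.552%, a ratio of 0.235 (0.169 to 0.320), or 0.490 after thinning. Those with NK receptors and no type 17 genes numbered 171 and 27, a ratio of 0.178 (0.114 to 0.268). The shortfall of NKT-like cells in ΔMAC was thus found among cells without type 17 genes. Il4 and type 17 genes seldom met in a cell: 3 of 129 Il4-bearing cells in FL/FL (2.33%) and 2 of 17 in ΔMAC (11.8%) had type 17 genes. Among cells that entered through Zbtb16 alone, 58 of 167 (34.7%, 27.5 to 42.5) and 59 of 93 (63.4%, 52.8 to 73.2) had them. T cell receptor segment genes were not analysed here, so NKT and gamma-delta cells cannot be told apart by their receptors. The name NKT-like accordingly fits the Il4-bearing and NK receptor-bearing cells by their transcripts, while type 17 genes were found in 61 of the 110 ΔMAC cells, of which 15 also had NK receptors and 2 had Il4.

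Genes of the NKT1 subtype were lower in ΔMAC over the gate as a whole. Of 18 such genes 16 were measured (at least 20 UMIs expected in the smaller library), none was 1.5-fold higher and 14 were at least 1.5-fold lower, with a median log2 ratio of −1.23. Over all 4293 measured genes the median log2 ratio was −0.08, with 252 genes (5.87%) at least 1.5-fold higher and 521 (12.1%) lower. Ifng, the interferon gamma gene, was at 309.6 CPM in FL/FL and 103 in ΔMAC, a ratio of 0.332 (0.255 to 0.427). Klrb1c, which encodes NK1.1, was at 209 and 92.3 CPM, a ratio of 0.442 (0.332 to 0.579). The killer cell granule gene Nkg7 was at 593 and 238 CPM, a ratio of 0.401. B gate levels of these 3 genes were below those of the NKT-like cells in each library, the nearest being Ifng at 52.6 and 47.5 CPM.

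Other NKT1 genes followed the same order, some at smaller and some at larger distances. Il2rb, the receptor chain that binds interleukins 2 and 15, was at 317 CPM in FL/FL and 165 in ΔMAC. Tbx21, which encodes the factor T-bet, was at 90.2 and 54.5 CPM, and Cxcr3, a homing receptor under T-bet, at 115 and 65.1. The granzyme gene Gzmb was at 309 and 92.3 CPM, although 97 of its 634 FL/FL UMIs came from 1 cell. Fasl, the ligand of the death receptor Fas, was the exception, at 73.6 and 74.1 CPM (ratio 1.01, 0.714 to 1.4). Chemokine genes were lower in ΔMAC in 5 of 6 measured cases, with a median log2 ratio of −1.23. Ccl5, which draws T cells and monocytes, was at 2008 and 557 CPM, and Xcl1, which draws cross-presenting dendritic cells, at 309.6 and 124. Ccl5 also stood at 825 and 598 CPM in the B gate, so in ΔMAC its level over all NKT-like cells was no higher than in B cells. Gzma was at 163 and 13.6 CPM, and at 176 and 147 in the B gate.

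NKT2 genes were few and low. Of 12 listed genes, 4 could be measured outside the rule, with a median log2 ratio of −0.90 and 3 of them at least 1.5-fold lower in ΔMAC. Gata3, the factor of type 2 fate, was at 131 CPM in FL/FL and 113 in ΔMAC, a ratio of 0.868 (0.663 to 1.13) whose interval includes equality. Il4ra, the interleukin 4 receptor chain, was at 101 and 56.0 CPM, though B cells held it at 87.6 and 93.6. Il13, a profibrotic partner of Il4, had 13 UMIs in FL/FL and 1 in ΔMAC. Il17rb, the receptor for interleukin 25, went the other way with 12 and 30 UMIs, below the minimum for measurement. Cd4 was low in both libraries, at 25.4 and 22.7 CPM.

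NKT17 genes were higher in ΔMAC, with a median log2 ratio of 1.10, and 10 of 13 measured genes were at least 1.5-fold higher and none lower. Sdc1, the syndecan used to mark NKT17 cells, was at 50.2 CPM in FL/FL and 154 in ΔMAC (ratio 3.07, 2.31 to 4.08). Il1r1, the interleukin 1 receptor, was at 23.4 and 83.2 CPM (ratio 3.55, 2.37 to 5.35). Il7r, the receptor of the survival cytokine interleukin 7, was at 956 and 2050 CPM (ratio 2.14, 2 to 2.3). Of the 64 Il17a UMIs in FL/FL, 49 came from 1 cell, and an Il17a UMI was found in 2.70% of FL/FL and 9.09% of ΔMAC cells (1.02% and 6.54% thinned, B gate 0.0925% and 0.0455%). The costimulatory receptor gene Icos was at 430.1 and 1060 CPM (ratio 2.47, 2.23 to 2.73), and Maf, a factor of cytokine genes, at 433 and 722. Both were outside the NKT17 list and were higher in the same library as its genes.

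**Figure D3:**
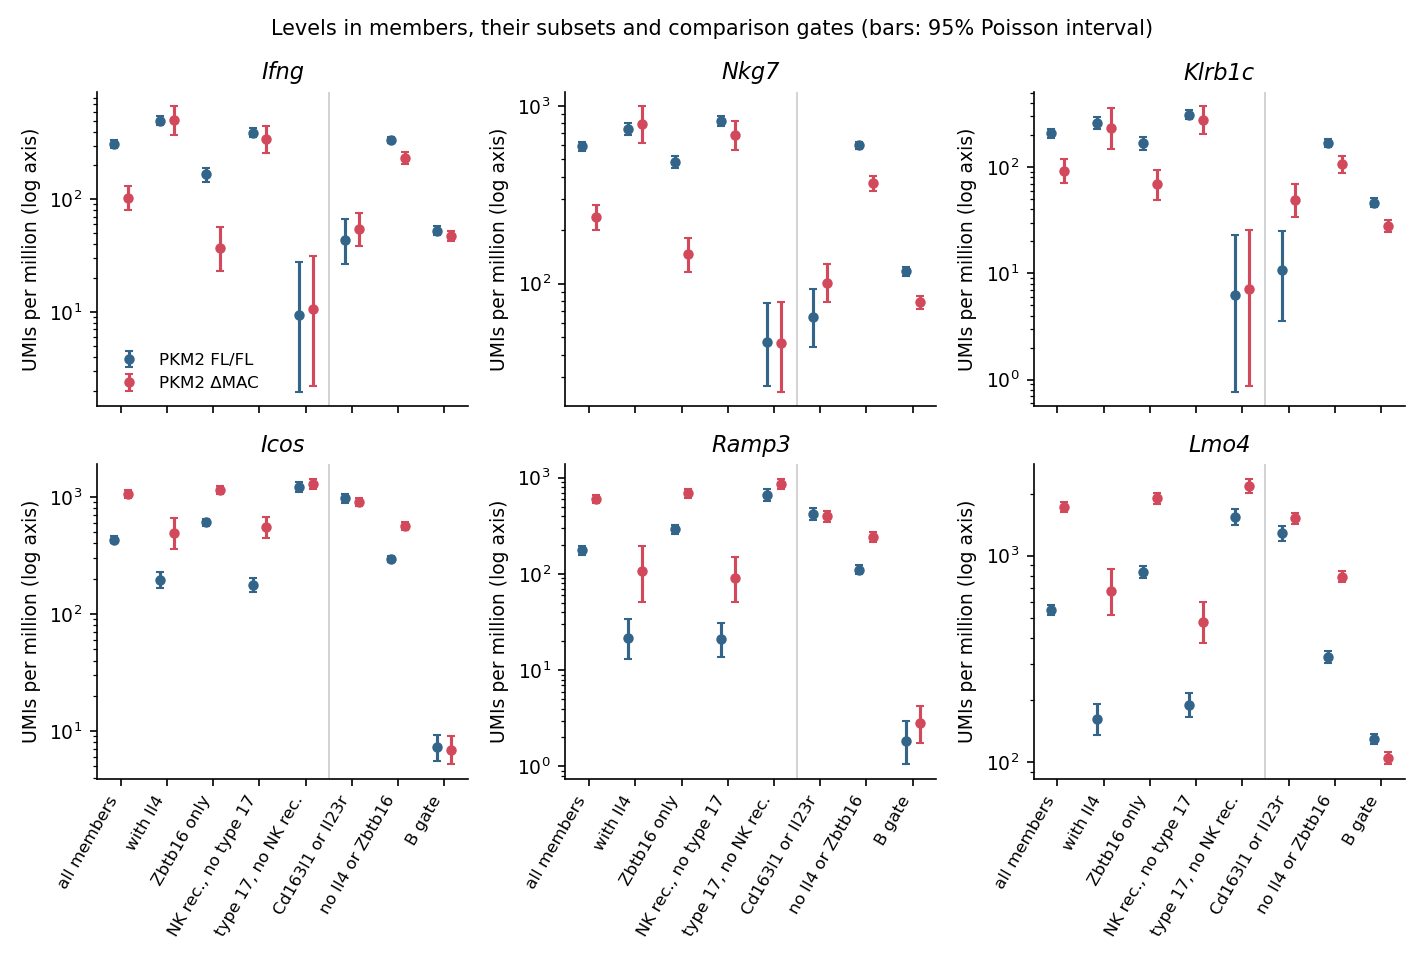
Level of 6 genes in CPM (vertical, logarithmic axis, with 95% Poisson intervals) in all NKT-like cells, their subsets, CD3-bearing cells with Cd163l1 or Il23r, CD3-bearing cells without Il4 or Zbtb16, and B cells, for FL/FL and ΔMAC. Ifng, Nkg7 and Klrb1c differ between the libraries over all NKT-like cells (Ifng 309.6 against 103) but lie close in cells with Il4. Ifng is at 501 against 504 there, but its ratio was 0.608 without 1 ΔMAC cell and with all FL/FL cells kept. Icos differs in both sets of cells (196 against 493 with Il4).

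Among Il4-bearing cells, 129 in FL/FL and 17 in ΔMAC, the NKT1 list centred near equality between the libraries, with single cells weighing on several genes. Of 10 measured NKT1 genes none was 1.5-fold lower and 2 were higher, with a median log2 ratio of 0.05, where the same 10 genes had −1.30 over all NKT-like cells. In these cells 551 genes were measured, with 29 (5.26%) at least 1.5-fold higher and 58 (10.5%) lower. Ifng was at 501 CPM in FL/FL and 504 in ΔMAC (ratio 1.01, 0.728 to 1.36), and without the ΔMAC cell that held most of it the ratio was 0.608. Klrb1c was at 263 and 236 CPM (ratio 0.897, 0.551 to 1.39), and Nkg7 at 738 and 793 (ratio 1.07, 0.833 to 1.37). Ccl5 was at 2007 and 1425 CPM (ratio 0.710, 0.591 to 0.847, or 0.634 without the ΔMAC cell with most). Il2rb had a ratio of 0.762, or 0.639 without such a cell. The 2 higher genes were Klrk1, which encodes NKG2D, at 269 and 504 CPM, and Xcl1, at 250.3 and 461, and the ratio of Xcl1 was 1.02 without 1 ΔMAC cell. Gzmb, at 380.0 and 407 CPM, had a ratio of 1.07 that became 0.578 without 1 cell. The 17 ΔMAC cells held 93311 UMIs in all, so single cells weigh on each of these values. Without the ΔMAC cell with most of the gene, the ratios of Ifng, Gzmb, Ccl5 and Il2rb were each at least 1.5-fold below equality. A cell was left out in ΔMAC alone and all FL/FL cells were kept, which lowers ratios by design. These values thus show the weight of 1 cell and no direction. Klrk1 stayed higher at 1.64, and Nkg7 and Klrb1c were at 0.921 and 0.843.

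Some genes stayed apart between the libraries inside the Il4-bearing cells. Icos was at 196 CPM in FL/FL and 493 in ΔMAC (ratio 2.52, 1.78 to 3.51, or 2.15 without the ΔMAC cell with most). Il7r was at 564 and 1468 CPM (ratio 2.60, 2.14 to 3.15, or 2.37), and Maf at 319 and 729 (ratio 2.29, 1.73 to 2.99, or 2.15). Each of these 3 genes was also higher in ΔMAC over all NKT-like cells. Ifngr1, the interferon gamma receptor chain, was at 385 and 632 CPM (ratio 1.64, 1.23 to 2.17). Without the ΔMAC cell with most, its ratio was 1.46, under 1.5-fold. Lower in ΔMAC was the phosphatase gene Dusp1, at 1430 and 718 CPM (ratio 0.502, 0.387 to 0.642). Immediate early genes had a median log2 ratio of −0.34 in these cells, with 6 of 18 measured genes at least 1.5-fold lower and none higher. Il4 itself was at 290.1 and 246 CPM in the cells chosen for it, with up to 16 UMIs in a FL/FL cell and up to 3 in a ΔMAC cell. Gata3 was at 150.2 and 161 CPM, and Izumo1r at 64.9 and 53.6.

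Cells with NK receptors and no type 17 genes, which the sums define, numbered 171 and 27. Ifng was at 391 CPM in FL/FL and 342 in ΔMAC, Nkg7 at 825 and 683 and Klrb1c at 312 and 281. Icos was at 176 and 549 CPM there, Il7r at 574 and 1372 and Ramp3, a partner of calcitonin-family receptors, at 21.1 and 91.5. The first 3 genes were less than 1.5-fold apart between the libraries, although Klrb1c is in the sum that chose the cells, and the latter 3 were more than 2-fold higher in ΔMAC.

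**Figure D4:**
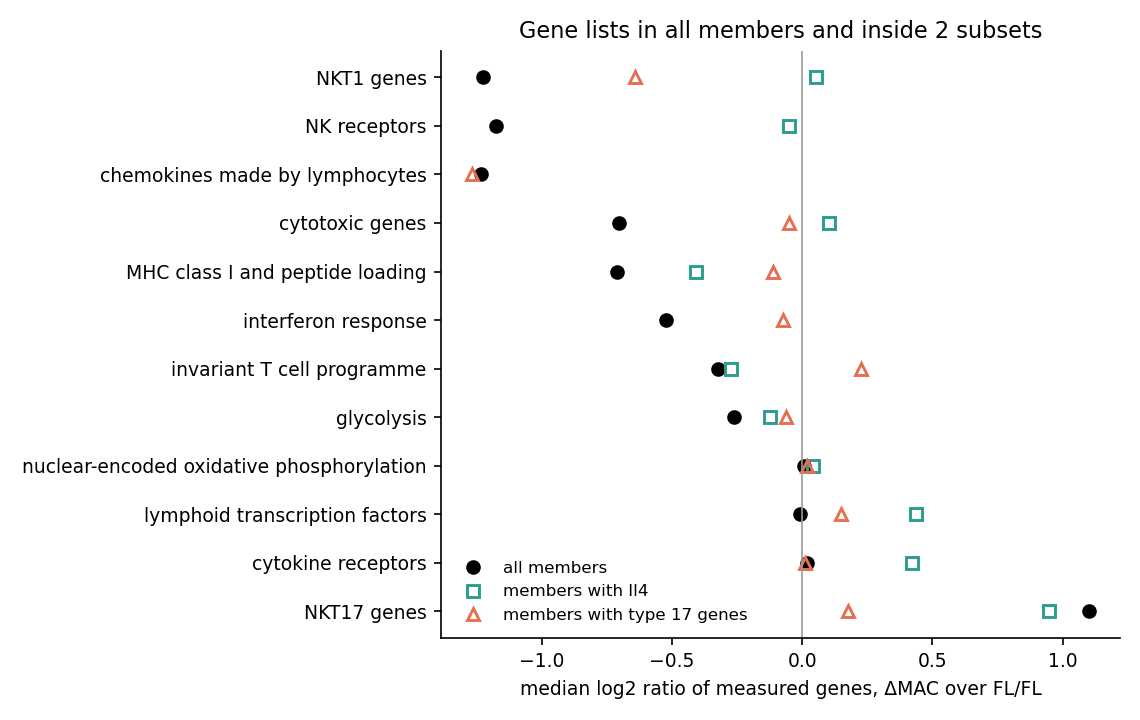
Median log2 ratio of ΔMAC over FL/FL (horizontal) for the measured genes of 12 lists in all NKT-like cells, in cells with Il4 and in cells with type 17 genes; a symbol is missing where fewer than 3 genes were measured. NKT1 genes have −1.23 over all NKT-like cells and 0.05 in cells with Il4, where single ΔMAC cells weigh on several genes. NKT17 genes have 1.10 over all (13 genes) and 0.17 in cells with type 17 genes. The latter value comes from 8 genes outside the sum that chose those cells, which have 0.81 over all.

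Among cells with type 17 genes, 61 in each library, the NKT17 genes were near-equal between the libraries. Leaving out the genes of the sum, 8 were measured and had a median log2 ratio of 0.17, with none 1.5-fold apart, where the same 8 genes had 0.81 over all NKT-like cells. Since genes of the same subtype chose these cells, the likeness is a description and supports nothing further. Of 2747 genes measured in them, 145 (5.28%) were at least 1.5-fold higher and 289 (10.5%) lower in ΔMAC. Sdc1 was at 215 CPM in FL/FL and 254 in ΔMAC and Il17a at 145 and 128, but both genes are in the sum that chose the cells. Without the FL/FL cell that held 49 of its 64 UMIs, Il17a was at 34.7 CPM in FL/FL (ratio 3.69, 2.04 to 7.09). Outside that sum, Icos was at 1096 and 1226 CPM (ratio 1.12, 0.982 to 1.27), Il7r at 1941 and 2242, and Ramp1, another calcitonin-family partner, at 802 and 767. Ifng was at 72.5 and 23.6 CPM, on either side of its B gate levels of 52.6 and 47.5. Type 17 cells of both libraries thus shared high Icos and Il7r and low Ifng. Ifngr1 stood apart in these cells, at 281 and 769.9 CPM (ratio 2.74, 2.21 to 3.41), and Ccl5 was at 609 and 296. Cd28, the costimulatory receptor gene, was at 174 and 296 CPM (ratio 1.70, 1.26 to 2.30).

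In cells that entered through Zbtb16 alone, 167 and 93, the libraries lay far apart. Of 16 measured NKT1 genes 14 were at least 1.5-fold lower in ΔMAC and none higher, with a median log2 ratio of −1.65, and 8 of 13 NKT17 genes were higher and none lower. Among the 3874 genes measured there, 205 (5.29%) were higher and 487 (12.6%) lower. Ifng was at 166 CPM in FL/FL and 37.0 in ΔMAC (ratio 0.222), and Nkg7 at 484 and 146. Icos was at 606 and 1154 CPM (ratio 1.90), and Ramp3 at 293 and 685 (ratio 2.34). The shares of type 17 cells among them, given above, were 34.7% and 63.4%.

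The ranking of genes highest in ΔMAC over all NKT-like cells was led by Kcnk1, a potassium channel, at 20 CPM in FL/FL and 86.2 in ΔMAC (log2 ratio 2.11). Ifngr2, the second interferon gamma receptor chain, was at 31.2 and 129 CPM (2.04). S1pr1, the receptor that lets lymphocytes leave tissue, was at 21.9 and 84.7 CPM (1.95), and Ramp3 at 177 and 604 (1.77). Lmo4, a LIM domain cofactor, was at 547 and 1726 CPM (1.66), and Hk2, a hexokinase, at 47.8 and 145 (1.60). The other genes of the ranking were Cysltr1, Il1r1, Avpi1, Aqp3 and Sdc1, with log2 ratios from 1.62 to 1.95, and Erdr1. Erdr1, at 57.1 and 229.9 CPM, was also higher in ΔMAC B cells (66.2 and 211 CPM). CD3-bearing cells without Il4 or Zbtb16 also held every gene of this ranking at a higher level in ΔMAC. Among them were Cysltr1 at 12.4 and 47.0 CPM, Hk2 at 20.6 and 63.8, Il1r1 at 12.1 and 31.1 and Ramp3 at 110.5 and 241. Kcnk1 was at 5.88 and 20.2 CPM there, S1pr1 at 63.7 and 120 and Lmo4 at 323 and 792.

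The genes lowest in ΔMAC were led by 1 that was low in other ΔMAC cells too and 1 that rested on a single cell. Mtmr9 had 146 UMIs in FL/FL and 1 in ΔMAC (log2 ratio −5.56), and CD3-bearing cells without Il4 or Zbtb16 held it at 54.3 and 3.36 CPM. Of the 84 Ptprb UMIs in FL/FL, 81 came from 1 cell, and both of the 2 UMIs in ΔMAC came from 1 cell. Without the top cell of each library its log2 ratio turned from −3.76 to 1.65. ΔMAC then held none, and the floor of 3 counts stood in, so the 1.65 gives no direction. Sytl2, a granule exocytosis gene, was at 76.6 and 12.1 CPM (log2 ratio −2.66). Gem, a small GTP-binding protein, was at 93.6 and 16.6 CPM (−2.49), and Gimap7, a GTPase of lymphocytes, at 202 and 52.9 (−1.93). Ly6c1, Itih5, Gpc1, Samd3, Pvr, Ncr1 and Ccl5 were the others, with log2 ratios from −3.10 to −1.85. Each of these lowest genes but Ly6c1 was also lower in ΔMAC in the CD3-bearing cells without Il4 or Zbtb16. Sytl2 was at 57.9 and 28.6 CPM there, Gpc1 at 52.0 and 17.6, Samd3 at 51.7 and 19.3 and Gimap7 at 149.7 and 72.2. Ly6c1 went the other way in those cells, at 26.2 and 31.1 CPM.

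**Figure D5:**
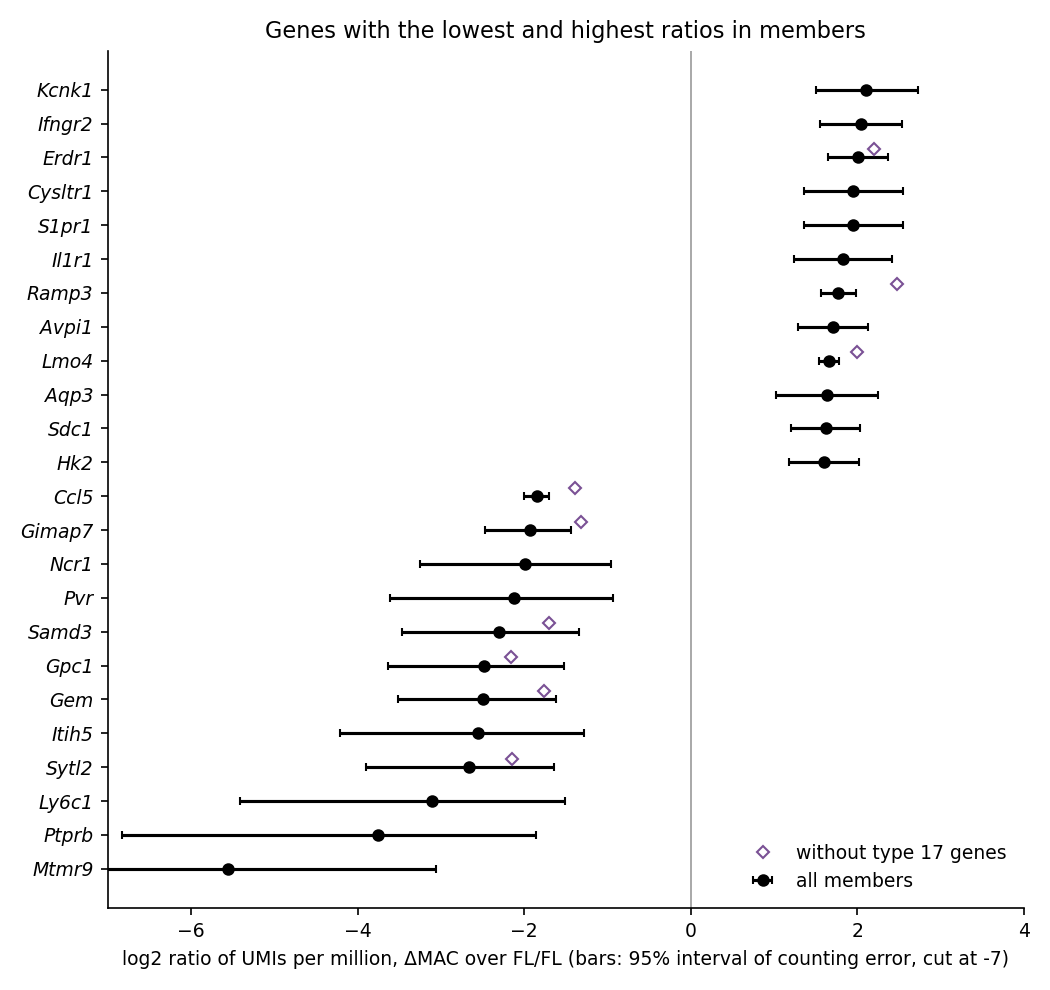
Log2 ratio of ΔMAC over FL/FL (horizontal, filled points with 95% intervals of counting error) for the 12 lowest and 12 highest genes in all NKT-like cells, with open diamonds for the value without cells that have type 17 genes where the gene was still measured. Ramp3 moves from 1.77 to 2.48 and Lmo4 from 1.66 to 1.99 without those cells, while Ccl5 moves from −1.85 to −1.39.

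Leaving out the cells with type 17 genes left 235 FL/FL and 49 ΔMAC cells and 1954 measured genes, of which 99 (5.07%) were at least 1.5-fold higher and 247 (12.6%) lower in ΔMAC. Of the 90 genes higher over all NKT-like cells that could still be measured, 59 remained higher, and of 192 lower genes 128 remained lower. NKT1 genes had a median log2 ratio of −0.57 there, with 7 of 15 at least 1.5-fold lower and none higher. Among the highest genes were Ramp3, at 62.1 CPM in FL/FL and 347 in ΔMAC (ratio 5.59), S100a4, a calcium-binding protein of effector cells, at 188 and 831 (ratio 4.41), and Lmo4, at 304 and 1211. Icos was at 247 and 835 CPM (ratio 3.37), and Ramp1 at 137 and 429.9. Among the lowest were Il4ra, at 107 and 35.8 CPM, Ctla2a, a protease inhibitor, at 417 and 143, and Cirbp, a cold-inducible RNA-binding protein, at 290.2 and 107. Cells just under the threshold weighed on these values: 22 of the 235 FL/FL cells and 21 of the 49 ΔMAC cells had 1 type 17 UMI. Without them, an alternative added after the data had been seen, the ratio was 3 for Ramp3 (1.81 to 4.82), 2.48 for Lmo4 and 2.45 for Icos. Among the cells negative for both sums, Icos was at 481 CPM in the 64 FL/FL cells and 1242 in the 22 ΔMAC cells and Lmo4 at 681 and 2257, but 10 and 14 of these cells had 1 type 17 UMI. In the 54 and 8 cells without any, Icos was at 408 and 1008 CPM and Lmo4 at 592 and 1806.

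Antigen presentation genes were lower in ΔMAC. All 14 MHC class I and peptide loading genes were measured, with a median log2 ratio of −0.71, 8 of them at least 1.5-fold lower and none higher. H2-K1, a classical class I heavy chain, was at 3295 CPM in FL/FL and 1973 in ΔMAC (ratio 0.599, 0.564 to 0.635), and B2m, its light chain, at 2670 and 2010. The immunoproteasome gene Psmb9 was at 129 and 59.0 CPM. H2-Q6 and H2-Q7 were at 605 and 263 and at 850.4 and 401 CPM, and reads of such near-identical genes may be split between them. In Il4-bearing cells the median over 9 measured genes was −0.41, with 1 at least 1.5-fold lower, and in cells with type 17 genes it was −0.11 over 14, with 1 (H2-Q6) at least 1.5-fold lower. H2-K1 was at 3758 and 2829 CPM in the former and at 1932 and 1637 in the latter.

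Interferon response genes had a median log2 ratio of −0.52 over 19 measured genes, with 9 at least 1.5-fold lower and 2 higher in ΔMAC. The transcription factor gene Irf1 was at 124 and 65.1 CPM, and the GTPase gene Igtp at 120 and 63.5. Going the other way were Bst2, which tethers virions, at 87.3 and 147 CPM, and Ifitm3, at 119 and 185. In cells with type 17 genes, 11 such genes had a median of −0.07. Receptors were mixed, with 5 of 16 measured cytokine receptor genes higher and 3 lower and a median log2 ratio of 0.02. Il18r1, the interleukin 18 receptor, was at 252 and 504 CPM, and Ifnar2, a type I interferon receptor chain, at 88.3 and 40.8.

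Transcription factor genes as a list centred on equality, with a median log2 ratio of −0.01 over 22 measured genes, 5 at least 1.5-fold higher and 2 lower. Tcf7, which encodes the memory T cell factor TCF-1, was at 113 and 256 CPM (ratio 2.27, 1.85 to 2.78), and Rora, an orphan nuclear receptor gene, at 349 and 676. Ikzf3 was at 148 and 266 CPM. Bcl11b, needed for T cell identity, was at 296 and 298 CPM. The invariant T cell programme had a median log2 ratio of −0.32 over 17 genes, with 5 lower and none higher. Slamf1, a receptor used in NKT selection, was at 38.5 and 34.8 CPM, and Id2, a partner of effector fate, at 872 and 744.

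Of 20 listed effector cytokine genes few could be measured, and those other than Ifng and Il17a were less than 1.5-fold apart. The list had a median log2 ratio of −0.15 over 6 measured genes, with 1 higher (Il17a) and 1 lower (Ifng). Tnf was at 98.0 CPM in FL/FL and 95.3 in ΔMAC (ratio 0.972, 0.721 to 1.30), and Tgfb1, the main profibrotic cytokine, at 226 and 228 (ratio 1.01, 0.836 to 1.22). Ltb, lymphotoxin beta, was at 854 and 676 CPM (ratio 0.792, 0.712 to 0.879). Areg had 52 UMIs in FL/FL, 35 of them in 1 cell, and 2 in ΔMAC.

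Genes of the T cell receptor complex and its signalling were close between the libraries, with a median log2 ratio of −0.13 over 13 measured genes, 3 lower and 1 higher. Cd28 was at 346 and 343 CPM, and Lat, the adaptor below the receptor, at 258 and 431. Cd3d, at 638 CPM in both libraries, is a gene of the rule outside those 13, so its level describes how the cells were chosen. Early response genes had a median of −0.10 over 22, with 4 lower, among them Dusp2, at 505 and 275 CPM. Among metabolic genes, 24 nuclear respiratory chain genes had a median of 0.01 with none 1.5-fold apart, 11 mitochondrial genes 0.24 with 1 higher, and 14 glycolysis genes −0.26 with 1 higher and 2 lower. Hk2 was the higher one, and Tpi1, triose phosphate isomerase, at 83.9 and 45.4 CPM, and the glucose transporter gene Slc2a3, at 66.8 and 33.3, were lower.

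Against other CD3-bearing cells that met every condition but Il4 and Zbtb16 (522 and 227 cells), NKT-like cells differed in few genes. At 2-fold in the same direction in both libraries, 13 of 4135 genes were higher (0.314%) and 14 lower (0.339%), as a description, since the rule reads genes of these cells. Kcnk1 was at 20 CPM in NKT-like and 5.88 in the other cells of FL/FL, and at 86.2 and 20.2 in ΔMAC. Ramp1 was at 280.4 against 135 CPM in FL/FL and 625 against 286 in ΔMAC, and Il17re, a receptor for interleukin 17C, at 29.3 against 9.48 and 78.7 against 37.8. Lower were Cd4, the helper coreceptor, at 25.4 against 97.1 and 22.7 against 74.7 CPM, Tnfsf8, the CD30 ligand, at 19.5 against 76.8 and 12.1 against 84.8, and the integrin gene Itga4, at 67.8 against 210 and 52.9 against 168. The libraries differed within the other CD3-bearing cells in the same direction for several genes named above: Icos was at 296 and 565 CPM there, Lmo4 at 323 and 792, Il7r at 946 and 1638, Ifng at 336 and 232 and Nkg7 at 603 and 368.

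The CD3-bearing cells that failed on Cd163l1 or Il23r alone, 76 in FL/FL and 113 in ΔMAC, were compared as well, a group added after the data had been seen. NKT-like cells were 2-fold higher in 28 of 3249 genes (0.862%) and lower in 16 (0.492%). Ly6c2, a surface antigen of activated and memory T cells, was at 626 against 19.5 CPM in FL/FL and 339 against 53.6 in ΔMAC, and Xcl1 at 309.6 against 15.2 and 124 against 38.7. Icos was at 972 and 910 CPM in the failing cells, and at 1096 and 1226 in the NKT-like cells with type 17 genes. Il17a was at 1026 and 749 CPM in the failing cells against 145 and 128, or 34.7 in FL/FL without 1 cell, although the gene is in the sum that chose the latter cells. Zbtb16, for which both groups were chosen, was at 275.5 and 272.5 CPM in the failing cells.

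Against CD8 T cells (1064 and 1209 cells), 66 of 3617 genes were 2-fold higher in NKT-like cells in both libraries (1.82%) and 41 lower (1.13%). Maf was at 433 against 101 CPM in FL/FL and 722 against 49.3 in ΔMAC, and Icos at 430.1 against 101 and 1060 against 92.7. Eomes, a factor of CD8 memory and NK cells, was lower, at 19.5 against 64.7 and 7.56 against 55.1 CPM. Against NK and type 1 innate lymphoid cells (2115 and 1613 cells), 50 of 4269 genes were higher (1.17%) and 140 lower (3.28%). Bcl11b was at 296 against 29.6 CPM in FL/FL and 298 against 29.6 in ΔMAC, and Ly6a, a surface antigen of activated T cells, at 357 against 27.2 and 241 against 35.4. Lower were Eomes, at 164 and 162 CPM in those cells, and the NK receptor genes Klrb1a, at 20.5 against 171 and 9.08 against 181, and Klri2, at 15.1 against 157 and 7.56 against 200. The NKT-like cells of both libraries thus carried a T cell factor that NK cells had at a low level, and less of the NK factor Eomes.

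Transcripts of other cell types were found in many cells of the gate, mostly at low counts. S100a8 and S100a9, neutrophil genes, were found in 116 of 296 FL/FL and 64 of 110 ΔMAC cells. They summed to 1702 and 960 UMIs, with 586 and 581 of them in 1 cell each, and 6 FL/FL and 2 ΔMAC cells held 20 or more. Cd79a and Ms4a1, B cell genes, were found in 40 and 10 cells. Lyz2 had 931 UMIs in 55 FL/FL cells, 473 of them in 1 cell, and none in ΔMAC, where Lyz1 had 256, all in 1 cell. Over the lists, neutrophil markers summed to 1200.0 and 1835 CPM, mononuclear phagocyte markers to 779 and 247, B cell markers to 682 and 275, and markers of NK and type 1 innate lymphoid cells to 655 and 331. Markers of basophils and mast cells, which are among the other sources of Il4, summed to 2 UMIs in FL/FL and 0 in ΔMAC, with Mcpt8 and Cpa3 at 0 in both. Hepatocyte markers summed to 17 and 8 UMIs. The NK and B cell markers were higher in FL/FL, as the NKT1 genes were, and their part in those differences was not tested. Scrublet called 21 of the 296 FL/FL cells (7.09%) and 9 of the 110 ΔMAC cells (8.18%) as doublets, and without them the ratio of shares was 0.409.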

How the data were processed

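The deposited values are raw UMI counts for each gene and barcode, from Cell Ranger 6.0.0 per the file headers. Build mm10 and Seurat 4.3.0 are named per the submitters' processing notes, without the use of Seurat being stated. Barcodes below 300 genes or at 20% mitochondrial UMIs and above were left out (64 FL/FL and 72 ΔMAC barcodes). Library totals were 54519921 and 43134027 UMIs. Gates on raw UMIs gave the cells. Doublets stayed in, and leaving out Scrublet calls (scanpy 1.11.5, expected rate 0.08) was an alternative. Free RNA was not subtracted, and B gate levels are given beside shares of cells. UMIs were summed per library and scaled to a total of 1e6 (CPM), with a floor of 3 counts where a library had none.

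A gene counted as measured with at least 20 UMIs expected in the smaller library. Named genes are the 12 highest and 12 lowest ratios, leaving out genes of the rule, mitochondrial, ribosomal protein and haemoglobin genes, predicted genes and genes above 10 times their level in the B, neutrophil or phagocyte gates. Against other cells they come from the 12 highest and 8 lowest, and from each list from its measured genes. Genes printed beyond that were picked once their values were known: Icos, Maf and Ifngr1 in subsets, unmeasured genes given by UMIs, and values set beside another result. The rule, the gene lists and the comparisons were chosen with earlier results of these data known. Counts past 1.5-fold (2-fold against other cells) are sizes, not tests. One listed gene is not reported here. Gene positions come from GENCODE M21. The interval calculations were tested on simulated data. Software: matplotlib 3.10.9, anndata 0.12.19, pandas 2.3.3, scipy 1.17.1, numpy 2.4.6, Python 3.11.15.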

Additional observations from a re-analysis of the deposited data

How the results depend on the processing

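Of 511 values recomputed under alternatives, 454 stayed within counting error (for lists the median interval of their genes, for counts of genes 1.5 times), 54 moved and 3 reversed. Of the 454, 24 medians of lists near equality changed sign within that error, among them cytokine receptors, transcription factors and early response genes. The ratio of NKT-like shares was 0.605 with cells thinned to 2000 UMIs, 0.148 with Il4 alone, 0.531 with Zbtb16 alone and 0.675 without the Cd163l1 and Il23r condition (chosen after seeing the data). The ratio for cells without type 17 genes was 0.490 thinned, 0.134 with Il4 alone and 0.148 with type 17 genes called from 1 UMI, and that for cells with them 0.750 with Il4 alone. Genes higher and lower within NKT-like cells numbered 131 and 177 thinned, 164 and 250 with Il4 and Zbtb16 summing to at least 2, 451 and 1051 from 10 expected UMIs, 131 and 211 from 40, and 99 and 247 without type 17 cells. The NKT17 median was 0.47 thinned, and the NKT1 and NKT2 medians were −0.57 and −1.54 without type 17 cells. Neutrophil markers reversed to −2.02 without Scrublet calls and to −2.64 without type 17 cells. Ptprb reversed to 1.65 without the top cell of each library, a value set by the floor of 3 counts in ΔMAC. Thinned, genes higher and lower numbered 5 and 3 against other CD3 cells, 26 and 17 against CD8 T cells and 17 and 71 against NK cells. Thinning and higher minimums leave fewer genes measured, and the cause of other shifts was not tested. No paired analysis was possible because each genotype has 1 library. A class of 17 cells limits the Il4-bearing values in ΔMAC.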
